A study of Homo sapiens with 36 samples.

Results

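YAP1 and WWTR1 (the gene of TAZ), the TEAD factors TEAD1 and TEAD4, and 6 further genes of the same pathway were described across every group of the series: CYR61, CTGF, ANKRD1, AMOTL2, LATS2 and AJUBA. CYR61 and CTGF are the older names of CCN1 and CCN2. These 10 genes were picked by symbol for their known place in the Hippo pathway, out of 58735 genes counted. RNA-seq counts came from 36 libraries of 3 established human head and neck squamous carcinoma lines (HN4, HN6, Cal27), which make 12 groups with 3 libraries in each. In an IL-8 experiment, each line was given 100 ng/ml IL-8 (CXCL8, a chemokine that signals through CXCR1 and CXCR2) for 24 h or was left untreated. In a plasmid experiment, the lines received by transfection either ACLY (ATP-citrate lyase, which turns citrate into acetyl-CoA in the cytosol) on a plasmid or the vector alone. All groups were grown in medium whose serum had been depleted of exosomes. The labels do not give the time after transfection, nor whether the 3 libraries of a group came from separate cultures. The p-values therefore reflect library-to-library spread, some or all of which may be technical.

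The Hippo pathway is a kinase cascade that controls organ size and growth at confluence. The kinases STK3 and STK4, with the scaffold SAV1, activate LATS1 and LATS2, which with MOB1 proteins phosphorylate YAP and TAZ and hold them in the cytoplasm. Unphosphorylated YAP and TAZ enter the nucleus, bind TEAD transcription factors and switch on targets such as CYR61, CTGF and ANKRD1. Some targets are brakes on the pathway itself, among them LATS2 and AMOTL2. In squamous cancers of the head and neck, YAP and TAZ are known for driving proliferation. Much of this control acts on the proteins, by phosphorylation and location, which RNA counts do not measure.

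The TEAD factors recognise the letters GGAATG, and the promoters of well-known targets carry them close to the start of transcription. RefSeq promoter entries (GRCh38.p14, 250 bases before to 50 after each start) were found for 7 of the 10 genes, in 10 entries, and 6 of the 7 genes held GGAATG on either strand in at least 1 entry. Counted by entry, as the background is, 6 of the 10 held a match. Among all 35116 promoters of that length in the table, 14% held at least 1 match, 1.37% at least 2 and 0.128% at least 3. TEAD1, TEAD4 and CYR61 have no entry. The promoters of CTGF, with 3 matches, and of ANKRD1, with 2, are shown whole because they hold the most matches of the genes with an entry. Capitals mark GGAATG on the gene's strand. The promoters lie at chr6:131951323-131951622 and chr10:90921038-90921337, both on the minus strand.
CTGF: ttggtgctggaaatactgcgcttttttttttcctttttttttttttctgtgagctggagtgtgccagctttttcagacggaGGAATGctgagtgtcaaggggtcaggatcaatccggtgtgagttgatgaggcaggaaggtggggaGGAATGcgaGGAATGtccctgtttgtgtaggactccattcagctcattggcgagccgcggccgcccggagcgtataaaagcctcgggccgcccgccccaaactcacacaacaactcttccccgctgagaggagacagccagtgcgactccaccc
ANKRD1: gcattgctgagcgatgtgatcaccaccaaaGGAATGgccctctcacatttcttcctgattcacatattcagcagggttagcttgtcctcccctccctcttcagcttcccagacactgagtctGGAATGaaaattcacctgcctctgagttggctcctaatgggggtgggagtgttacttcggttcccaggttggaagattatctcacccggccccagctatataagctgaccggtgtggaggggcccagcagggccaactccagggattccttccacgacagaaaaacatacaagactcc

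In CTGF the matches begin 169, 104 and 95 bases before the start, and in ANKRD1 they begin 220 and 128 bases before it. The other 4 genes with a match hold 1 each, and those matches are shown with their flanking bases, to compare what surrounds the same 6 letters. The AMOTL2 match is on the other strand, so it reads CATTCC along the gene. The match begins 162 bases before the start in YAP1 (chr11:102110275-102110300, plus strand). It begins 69 bases before it in the second AMOTL2 entry (chr3:134374501-134374526, minus strand) and 59 before it in the second AJUBA entry (chr14:22976886-22976911, minus strand). In LATS2 it begins at base 10 after the start (chr13:21061562-21061587, minus strand). Both WWTR1 entries hold none, which says only that these letters are not in those windows.
YAP1: ggagtgtgcaGGAATGtagcaacttg
AMOTL2: gaaactctcaCATTCCtggcatagca
AJUBA: gaagttggctGGAATGaagccaaagc
LATS2: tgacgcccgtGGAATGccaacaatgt

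Library totals ran from 16570601 to 20232735 counts, and levels are given as CPM, counts relative to the library total scaled with TMM factors. With a count of 0, a level of as much as 0.148 to 0.181 CPM remains possible. Some libraries stand apart. ACLY itself went against the labels in HN4: it averaged 348 ± 30.4 CPM in the HN4 libraries labelled ACLY and 1508 ± 10.0 CPM in those labelled vector (SD, n = 3 each), while it averaged 2210.1 against 268 CPM in HN6 and 1901 against 230.1 CPM in Cal27. Those 6 libraries are therefore called HN4 labelled ACLY and HN4 labelled vector. ACLY was also at 1351 ± 18.1 CPM in HN4 with IL-8 and 374 ± 5.19 CPM in untreated HN4, and at 1170.1 ± 110.3 against 233 ± 4.98 CPM in Cal27. In HN6 it was lower with IL-8, at 224 ± 3.15 CPM against 280 ± 4.17 CPM untreated. In the Cal27 libraries with IL-8 and with ACLY, genes of HN4 were read. For this, 20 genes found in HN4 alone among the untreated libraries were taken (at least 10 CPM there, at most 0.3 CPM in the other lines). They stood at 0.294 ± 0.010 and 0.502 ± 0.024 of their HN4 level. In vector Cal27, which took no part in the choice, they stood at 0. Their 0 in untreated Cal27 follows from the choice. The 27 genes found in Cal27 alone were at 0.636 ± 0.028 with IL-8 and 0.398 ± 0.031 with ACLY. Replicate 3 of Cal27 with IL-8 had 1.06% of its counts on mitochondrial genes, against 3.37% and 3.59% in the other IL-8 libraries of that line, and replicate 3 of HN4 labelled ACLY had 2.15%, against 5.71% and 6.03%. Of 9 squamous markers, 8 or 9 passed 1 CPM in every group; their summed level was 5290 to 6486 CPM in Cal27 with IL-8 and 4056 to 4232 CPM with ACLY, against 7010 to 7568 CPM untreated and 7020 to 7658 CPM with vector. At most 4 of 9 fibroblast markers and 2 of 8 leukocyte and endothelial markers passed 1 CPM in any group.

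All 10 genes passed the filter on low counts in both experiments. Per length, in TPM (CPM corrected for gene length), CYR61 was the most abundant of the 10 in every untreated line, at 557 ± 18.5 TPM in HN6, 239 ± 8.81 in Cal27 and 194 ± 10.4 in HN4 (SD, n = 3 each). CYR61 encodes a secreted matrix protein that binds integrins. CTGF, its relative, stood at the low end, with 15.5 ± 1.75 TPM in HN6, 13.7 ± 1.23 in Cal27 and 10.2 ± 1.64 in HN4. It rested on 48 to 387 reads per library, so its errors are wider than those of CYR61. YAP1 was second per length in Cal27 and HN4, at 121 ± 7.53 and 131 ± 5.03 TPM, and behind AJUBA, AMOTL2 and TEAD1 in HN6, at 70.6 ± 5.07 TPM.

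**Figure D1:**
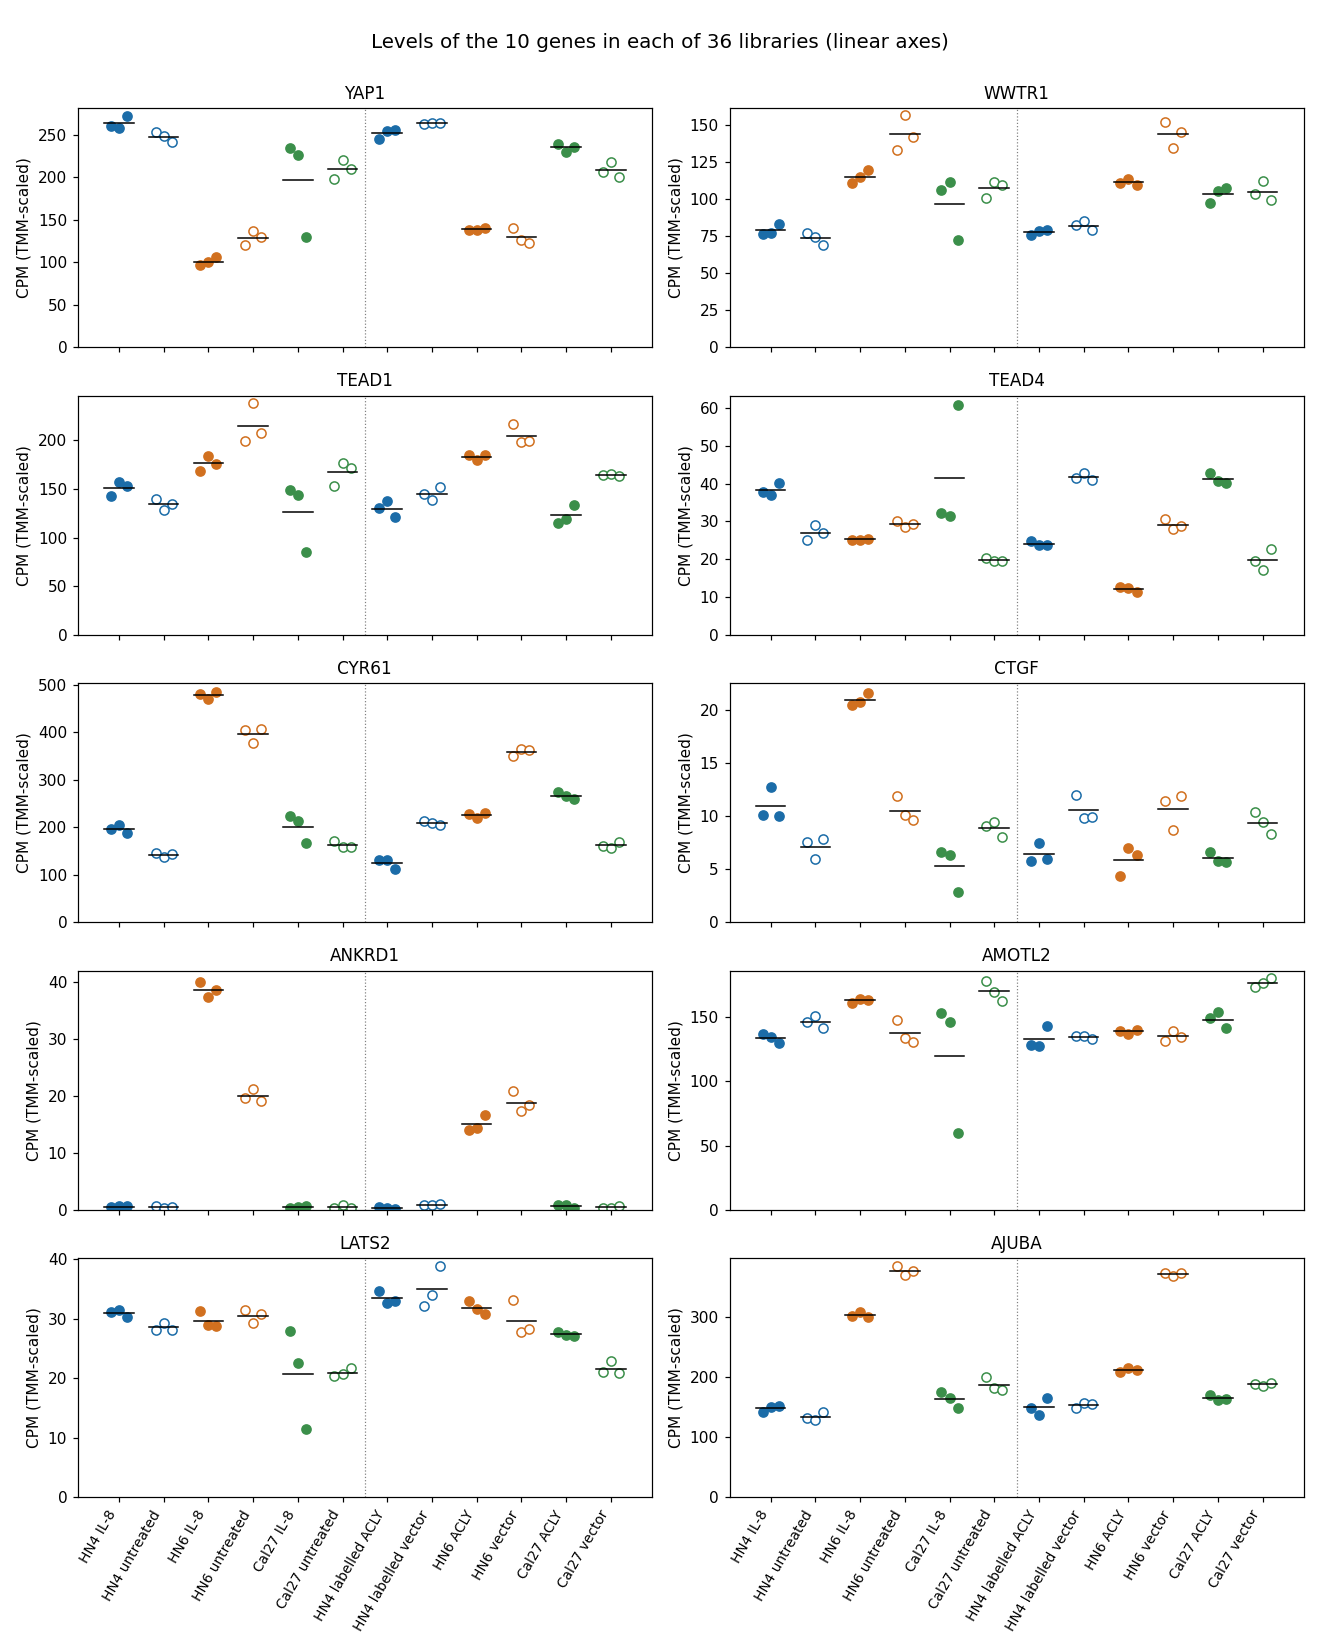
Level of each of the 10 genes in CPM (linear axis from 0) in every library of the 12 groups; each point is a library, the bar is the mean of 3, filled points are treated and open points are control libraries, and HN4, HN6 and Cal27 are blue, orange and green. ANKRD1 stands at 14.1 to 39.9 CPM in HN6 libraries and at most 1.02 CPM elsewhere, and replicate 3 of Cal27 with IL-8 lies apart from its group in YAP1, TEAD4 and AMOTL2.

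The largest log2 differences lay between the lines, in ANKRD1, AJUBA and CYR61. TEAD4 and CTGF differed more with treatment. TEAD4 was at -1.26 in HN6 with ACLY and CTGF at 1.00 in HN6 with IL-8. Between the control groups of the lines compared, neither passed 0.55 in size. HN6 had the lowest YAP1 and the highest WWTR1, and it alone had ANKRD1 above 1.02 CPM. Untreated HN6 had 7 of the 10 genes past the threshold against untreated HN4 (edgeR adjusted p under 0.05), 6 higher and 1 lower. Between the same lines 67.2% of 18398 genes were called, 32.4% higher and 34.7% lower, so the count is near the background. The median log2 difference was 0.61 over the 10 genes and -0.03 over all genes.

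The effectors differed in opposite directions. YAP1 (chromosome 11, 102110461 to 102233423, plus strand, hg38) encodes the coactivator at the end of the cascade. It had 121, 137 and 129 CPM in untreated HN6, against 253, 248 and 242 CPM in untreated HN4, with no overlap. Its log2 difference of HN6 over HN4 was -0.95 ± 0.14 (SE; edgeR adjusted p = 7.97e-06). WWTR1 (chromosome 3, 149517235 to 149736714, minus strand) encodes TAZ, the paralogue of YAP. It had 133, 157 and 142 CPM in untreated HN6, against 77.4, 74.5 and 69.4 CPM in untreated HN4, a log2 difference of 0.96 ± 0.11 (adjusted p = 7.5e-07). Cal27 stood between them for WWTR1, with 101, 112 and 109.9 CPM. Its log2 difference was 0.56 ± 0.11 over HN4 (adjusted p = 0.000299) and -0.40 ± 0.11 over HN6 (adjusted p = 0.00464). The call over HN6 was lost under library-size scaling (-0.28, edgeR adjusted p = 0.0681). For YAP1, untreated Cal27 had 199, 221 and 209.9 CPM, above HN6 by 0.73 ± 0.14 on the log2 scale (adjusted p = 0.000135).

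The ratio of YAP1 to WWTR1 reads per length, which no library scaling can move, separated the lines. Its mean was 1.20 ± 0.027 in untreated HN6 and 2.61 ± 0.048 in untreated Cal27, against 4.50 ± 0.15 in untreated HN4 (SD, n = 3 each). Every library of HN6, in all 4 of its groups, lay between 1.13 and 1.71. All Cal27 libraries lay between 2.40 and 3.29, and all HN4 libraries between 4.14 and 4.66, so no library of any line reached the range of another. Within HN6 the ratio was higher in all 3 ACLY libraries (1.67, 1.62 and 1.71) than in the vector libraries (1.23, 1.26 and 1.13). No test was made on this ratio, which was chosen after the levels were seen.

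TEAD1 (chromosome 11, 12674591 to 12944483, plus strand) and TEAD4 (chromosome 12, 2959330 to 3040673, plus strand) encode DNA-binding partners of YAP and TAZ. TEAD1 had 199.6, 238 and 208 CPM in untreated HN6, against 140.2, 129 and 135 CPM in untreated HN4, a log2 difference of 0.67 ± 0.14 (edgeR adjusted p = 0.000351). For TEAD4 the same lines overlapped, at 29.3 ± 0.76 CPM in HN6 and 27.0 ± 1.95 in HN4 (adjusted p = 0.61). Untreated Cal27 had the least TEAD4 of the untreated lines, 20.4, 19.6 and 19.7 CPM, a log2 difference over HN6 of -0.53 ± 0.18 (adjusted p = 0.0147).

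Among the targets, ANKRD1 (chromosome 10, 90912096 to 90921276, minus strand) differed most. It encodes an ankyrin repeat protein and is a standard reporter of YAP activity. It had 19.7, 21.2 and 19.0 CPM in untreated HN6, against 0.714, 0.394 and 0.524 CPM in untreated HN4, and Cal27 was also under 1 CPM, with 0.266, 0.841 and 0.396 CPM. The log2 difference of HN6 over HN4 was 5.16 ± 0.23 (edgeR adjusted p = 1.17e-12). The HN4 and Cal27 values rest on 3 to 20 reads a library over all their groups. CYR61 (chromosome 1, 85580761 to 85583962, plus strand) had 406, 377 and 408 CPM in untreated HN6, against 147, 138 and 144 CPM in untreated HN4, a log2 difference of 1.46 ± 0.09 (adjusted p = 6.14e-11). CTGF (chromosome 6, 131948176 to 131951373, minus strand), a secreted matrix protein like CYR61, differed less, with 11.9, 10.1 and 9.63 CPM in HN6 against 7.6, 5.97 and 7.85 CPM in HN4 (log2 difference 0.55 ± 0.20, adjusted p = 0.0217). That last call was lost without HN6 untreated replicate 1 (adjusted p = 0.0873) or HN4 untreated replicate 2 (adjusted p = 0.0967).

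The genes that act on the pathway from within were mixed. AJUBA (chromosome 14, 22971174 to 22982642, minus strand) encodes a LIM protein that binds LATS kinases and restrains them. It had 385, 369.7 and 376 CPM in untreated HN6, against 132, 129 and 142 CPM in untreated HN4, a log2 difference of 1.48 ± 0.07 (edgeR adjusted p = 3.66e-12). AMOTL2 (chromosome 3, 134355874 to 134375479, minus strand), a target whose protein holds YAP at junctions, overlapped between these lines, at 137 ± 9.41 CPM in HN6 and 146 ± 4.68 in HN4 (adjusted p = 0.67). LATS2 (chromosome 13, 20973032 to 21061547, minus strand), the kinase, overlapped too, at 30.5 ± 1.1 CPM in HN6 and 28.5 ± 0.683 in HN4 (adjusted p = 0.695).

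Cal27 over HN6 could be measured in separate control libraries of each experiment. Of the 10 genes, 1 was higher and 7 lower in untreated Cal27 (68.4% of all genes called, 35.3% higher and 33.1% lower), and 2 higher and 7 lower in vector Cal27 (73.3% of 18556 genes called, 36.7% higher and 36.6% lower). ANKRD1 had log2 differences of -5.27 ± 0.23 in the untreated and -5.26 ± 0.23 in the vector libraries. CYR61 was at -1.26 ± 0.09 and -1.13 ± 0.05, AJUBA at -0.98 ± 0.07 and -0.97 ± 0.05, and YAP1 at 0.73 ± 0.14 and 0.69 ± 0.05. CTGF passed in neither set, at -0.22 ± 0.20 and -0.17 ± 0.15 (edgeR adjusted p = 0.331 and 0.298). Untreated Cal27 over HN4 gave 4 higher and 2 lower (63.6% of all genes called, 32.2% higher and 31.4% lower), of which WWTR1 (0.56) and AJUBA (0.50 ± 0.07, adjusted p = 6.65e-06) kept their calls when any single library was left out. TEAD1, TEAD4, CYR61 and LATS2 had edgeR adjusted p from 0.0419 to 0.0499, and each of these calls was lost in most of the fits that left out 1 library. Without Cal27 IL-8 replicate 3, which enters the shared spread, 9 of the 10 genes were called for Cal27 over HN4 (71.9% of all genes), with YAP1 at -0.23 (adjusted p = 4.8e-05), AMOTL2 at 0.23 (adjusted p = 7.04e-05) and CTGF at 0.33 (adjusted p = 0.0187) added. TEAD1 of untreated Cal27 over HN6 (-0.33 ± 0.14, adjusted p = 0.0395) was lost without HN6 untreated replicate 2 (adjusted p = 0.145) or 3 (0.0549), or Cal27 untreated replicate 1 (0.129) or 3 (0.0636). That call was also lost under library-size (edgeR adjusted p = 0.234) and upper-quartile scaling (0.17), and with a filter at a mean of 5 CPM (0.111).

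**Figure D2:**
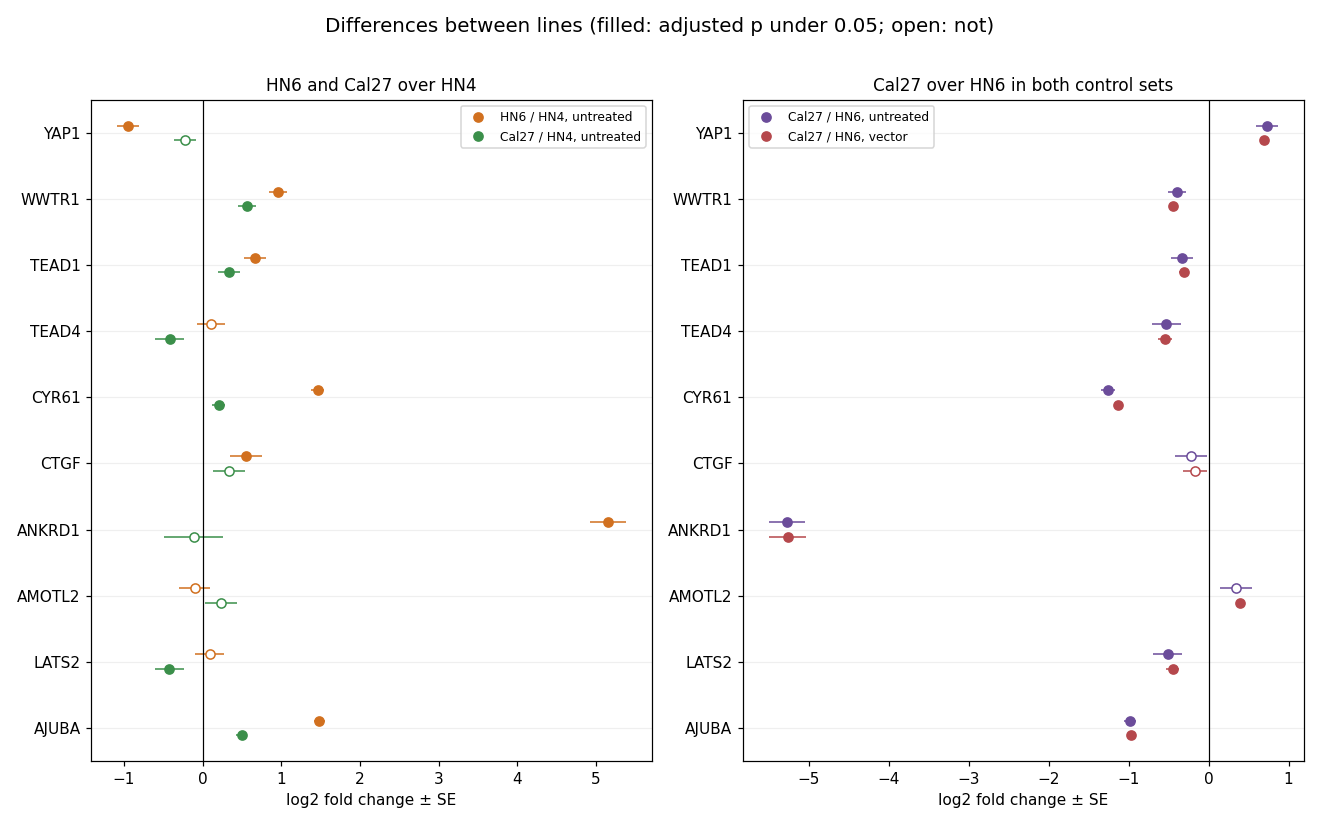
Log2 differences ± SE of the 10 genes between lines without treatment (left, HN6 and Cal27 over HN4) and of Cal27 over HN6 in untreated and vector libraries (right); filled points have an adjusted p under 0.05. ANKRD1 lies at 5.16 for HN6 over HN4 and near -5.27 for Cal27 over HN6, while YAP1 runs the other way.

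IL-8 was given to ask how lines that differ in CXCR1 respond to it. In HN4, 2 of the 10 genes rose and none fell, where 14% of 18398 genes were called, 6.89% higher and 7.09% lower. In HN6, 3 rose and 1 fell, where 15.4% were called, 7.61% higher and 7.81% lower. In Cal27, 2 rose and 4 fell, where 39.4% were called, 22.7% higher and 16.7% lower. CYR61 was called higher in all 3 lines, and CTGF was called in all 3, higher in HN4 and HN6 and lower in Cal27. The lines share 1 estimate of the spread, so replicate 3 of Cal27 with IL-8 bears on every one of these counts. Without that library, 6 genes were called in HN4 (30.3% of genes), 9 in HN6 (32.7%) and 7 in Cal27 (41.7%). Of these, AMOTL2 fell in HN4 and the others rose. YAP1, WWTR1, TEAD1, TEAD4 and AJUBA fell in HN6, and TEAD1, CTGF, AMOTL2 and AJUBA fell in Cal27.

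In HN6, CTGF and ANKRD1 rose most of the 10 genes. ANKRD1 had 39.9, 37.3 and 38.6 CPM with IL-8, against 19.7, 21.2 and 19.0 CPM untreated, a log2 change of 0.96 ± 0.15 (edgeR adjusted p = 0.000276). CTGF had 20.5, 20.8 and 21.6 CPM with IL-8, against 11.9, 10.1 and 9.63 CPM untreated, a log2 change of 1.00 ± 0.19 (adjusted p = 0.00151). The libraries of the groups did not overlap for either gene, and the IL-8 means, 38.6 CPM for ANKRD1 and 21.0 CPM for CTGF, were the highest of the 12 groups. CYR61 rose by less, with 480.3, 470.0 and 485 CPM with IL-8 against 406, 377 and 408 CPM (0.28 ± 0.08, adjusted p = 0.0308). This call was lost without any single HN6 library of the comparison, for example IL-8 replicate 1 (adjusted p = 0.0927).

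AJUBA fell in the same cells, to 301, 307 and 300.2 CPM with IL-8, against 385, 369.7 and 376 CPM untreated (-0.30 ± 0.07, adjusted p = 0.00615). The effectors did not pass: YAP1 had 96.8, 100.4 and 106 CPM with IL-8, against 121, 137 and 129 CPM (-0.34 ± 0.14, adjusted p = 0.106). WWTR1 had 111, 115 and 119.8 CPM, against 133, 157 and 142 CPM (-0.31 ± 0.11, adjusted p = 0.0698). Neither overlapped. Without Cal27 IL-8 replicate 3 the changes were the same size and passed, at -0.34 (adjusted p = 8.76e-07) for YAP1 and -0.31 (adjusted p = 2.5e-05) for WWTR1. The libraries of 9 of the 10 genes did not overlap in HN6, where 44.5% of all genes did not. TEAD1 (-0.28 ± 0.14, adjusted p = 0.195), TEAD4 (-0.20 ± 0.18, adjusted p = 0.492), AMOTL2 (0.26 ± 0.20, adjusted p = 0.436) and LATS2 (-0.03 ± 0.18, adjusted p = 0.948) did not pass. The summed fibroblast markers moved with this comparison, at 29.7 to 32.0 CPM with IL-8 and 17.2 to 18.6 CPM untreated, with 3 of the 5 tested higher; COL1A2, COL3A1 and PDGFRA were at 0 in both groups, and the part of the rest in the result was not tested.

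In HN4, CYR61 had 196, 206 and 188 CPM with IL-8, against 147, 138 and 144 CPM untreated, a log2 change of 0.46 ± 0.08 (edgeR adjusted p = 0.00171). CTGF had 10.1, 12.8 and 10.1 CPM with IL-8, against 7.6, 5.97 and 7.85 CPM (0.62 ± 0.20, adjusted p = 0.0448). That call was lost without any single library other than those of Cal27 with IL-8. TEAD4 missed the threshold, at 37.9, 37.0 and 40.0 CPM with IL-8 against 25.03, 28.9 and 27.0 CPM (0.51 ± 0.18, adjusted p = 0.0676), and passed without Cal27 IL-8 replicate 3 (adjusted p = 3.89e-07) and in DESeq2 (adjusted p = 0.0372). YAP1 (0.09 ± 0.14), WWTR1 (0.10 ± 0.11), ANKRD1 (0.05 ± 0.38) and LATS2 (0.12 ± 0.18) did not pass in HN4 with or without that library. TEAD1 (0.17 ± 0.14), AMOTL2 (-0.13 ± 0.20) and AJUBA (0.15 ± 0.07) did not pass with it (edgeR adjusted p = 0.482, 0.741 and 0.189). They passed without it (0.0245, 0.0445 and 0.0185).

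In Cal27, TEAD4 and CYR61 rose and CTGF, AMOTL2, TEAD1 and AJUBA fell. TEAD4 had 32.2, 31.3 and 60.8 CPM with IL-8, against 20.4, 19.6 and 19.7 CPM untreated (1.05 ± 0.18, adjusted p = 0.000221, edgeR). CTGF had 6.66, 6.4 and 2.85 CPM, against 9.09, 9.51 and 8.02 CPM (-0.75 ± 0.21, adjusted p = 0.00852). AMOTL2 had 153, 146 and 59.9 CPM, against 177, 169 and 162 CPM (-0.52 ± 0.20, adjusted p = 0.0485). In each of these genes the groups stayed apart while replicate 3 lay far from its partners. Its level was furthest under the lower of the other 2 in AMOTL2 (2.43 times), CTGF (2.24 times) and LATS2 (1.98 times), and above both in TEAD4 and ANKRD1. It stood apart over all genes too. Chi-square per degree of freedom was 104 and 107 against replicates 1 and 2, and 2.12 between those. Without replicate 3, TEAD4 was at 0.65 (adjusted p = 1.51e-08), CTGF at -0.46 (adjusted p = 0.00819) and AMOTL2 at -0.21 (adjusted p = 0.00252). TEAD1 was at -0.42 ± 0.14, adjusted p = 0.0217 with it and -0.21 (adjusted p = 0.00753) without it. CYR61, with 224, 214 and 167 CPM against 171, 158 and 158 CPM, was at 0.30 ± 0.08, adjusted p = 0.00979 with it and 0.41 (adjusted p = 2.82e-08) without it. LATS2 had 28.0, 22.6 and 11.4 CPM, against 20.5, 20.7 and 21.7 CPM, and went to a called 0.25 (adjusted p = 0.0182) without replicate 3, against -0.03 ± 0.19, adjusted p = 0.911 with it. AJUBA had 176, 165 and 148 CPM, against 199.8, 182 and 178 CPM (-0.21 ± 0.07, adjusted p = 0.0235), and its call was lost without untreated replicate 1 (adjusted p = 0.115). The call of TEAD1 was lost without untreated replicate 2 (adjusted p = 0.0768) or 3 (adjusted p = 0.0657), and that of AMOTL2 without any single library other than those of Cal27 with IL-8. In a fit of the 6 Cal27 libraries alone, TEAD4 was the only one of the 10 genes called, and CTGF (adjusted p = 0.116), CYR61 (0.155), TEAD1 (0.198), AJUBA (0.248) and AMOTL2 (0.278) were lost. Under library-size scaling the calls of CYR61 (adjusted p = 0.0573) and AMOTL2 (0.055) were lost, and without a filter on low counts that of AJUBA (0.182). The effectors YAP1 (-0.11 ± 0.14, adjusted p = 0.563) and WWTR1 (-0.16 ± 0.11, adjusted p = 0.262) did not pass.

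The share of HN4-only genes, 0.294 of their HN4 level, moved with this comparison. Of 9 squamous markers, 6 fell and EPCAM rose, where 16.7% of all genes fell and 22.7% rose. The summed leukocyte and endothelial markers were at 15.9 to 19.3 CPM with IL-8 and 26.9 to 28.7 CPM untreated, with 2 of 3 tested lower and PTPRC and LYZ at 0 in both groups. The part of these in the result was not tested. CTGF at 5.31 CPM, TEAD1 at 126 CPM and AMOTL2 at 119.5 CPM lay below both untreated Cal27 and the lowest HN4 group mean (6.43 CPM for CTGF). Without replicate 3, the CTGF libraries, at 6.66 and 6.40 CPM, lay on either side of that mean, and the TEAD1 and AMOTL2 libraries lay between 144 and 153 CPM. TEAD4 at 41.4 CPM lay above untreated HN4 (27.0 CPM) and within the range of the HN4 group means. CYR61 at 202 CPM lay within that range too. WWTR1 at 96.9 CPM and AJUBA at 163 CPM lay between untreated Cal27 (107 and 187 CPM) and untreated HN4 (73.8 and 134 CPM). YAP1 at 197 CPM and LATS2 at 20.7 CPM lay below both lines. Without replicate 3 their means were 230 and 25.3 CPM.

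**Figure D3:**
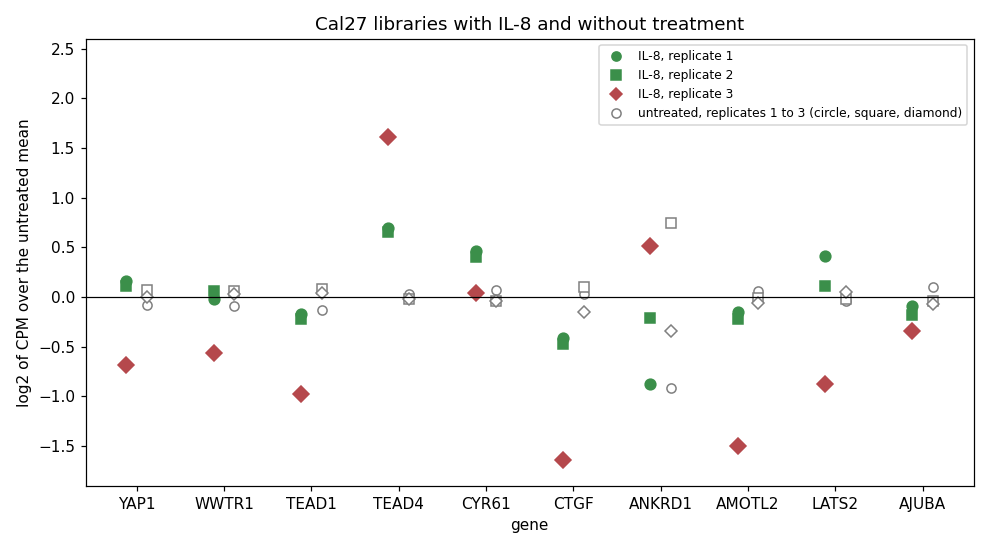
Log2 of CPM over the mean of untreated Cal27 for the 10 genes in each Cal27 library, with IL-8 (filled; replicate 3 in red) and untreated (open). Replicate 3 lies at -1.64 for CTGF, -1.50 for AMOTL2 and 1.61 for TEAD4, apart from the other IL-8 libraries.

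The response to IL-8 differed among the lines for 5 of the 10 genes (40.2% of genes called): CTGF, TEAD4, AJUBA, ANKRD1 and TEAD1. CTGF had an edgeR adjusted p of 0.000267, with log2 changes of 0.62 in HN4, 1.00 in HN6 and -0.75 in Cal27. TEAD4 had 0.00281, with 0.51, -0.20 and 1.05 in the same order of lines, and AJUBA had 0.00357, with 0.15, -0.30 and -0.21. For ANKRD1 (0.0461) and TEAD1 (0.0485) the call was lost in most of the fits that left out 1 library. CYR61 had 0.46, 0.28 and 0.30, and the test of its difference among lines gave an adjusted p of 0.383, or 0.0461 without Cal27 IL-8 replicate 3. Without that library 9 of the 10 genes were called (54.4% of genes).

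The ACLY plasmid was used to look for what lies downstream of the enzyme. In HN6, 6 of the 10 genes fell and none rose, where 51.6% of 18556 genes were called, 26.8% higher and 24.9% lower. In Cal27, 4 rose and 4 fell, where 63.2% were called, 34.2% higher and 29% lower. Between HN4 labelled ACLY and HN4 labelled vector, 5 fell and none rose, where 38.1% were called, 18.9% higher and 19.1% lower. CTGF, TEAD4 and CYR61 fell in HN6, while in Cal27 CTGF fell and TEAD4 and CYR61 rose. By the labels all 3 genes were lower in HN4 labelled ACLY, and with the HN4 labels exchanged each of those signs would turn.

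In HN6, TEAD4 fell most, to 12.6, 12.5 and 11.3 CPM with ACLY, against 30.7, 27.9 and 28.9 CPM with vector (-1.26 ± 0.09, adjusted p = 5.91e-14, edgeR). CYR61 fell to 228, 221 and 229.8 CPM, against 351, 365 and 363 CPM with vector (-0.67 ± 0.05, adjusted p = 3.49e-13). CTGF fell to 4.37, 7.06 and 6.36 CPM, against 11.4, 8.67 and 11.9 CPM (-0.84 ± 0.16, adjusted p = 2.84e-05). Both secreted targets thus had lower levels in every ACLY library than in any vector library. AJUBA, the LATS-binding LIM protein, fell to 208, 216 and 212 CPM, against 372, 368 and 373 CPM (-0.80 ± 0.05, adjusted p = 3.64e-15). WWTR1 fell to 111, 114 and 109.7 CPM, against 152, 135 and 145 CPM (-0.37 ± 0.06, adjusted p = 1.32e-06).

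YAP1 did not pass in HN6: it had 138, 138 and 141 CPM with ACLY, against 140.4, 127 and 123 CPM with vector (0.10 ± 0.05, adjusted p = 0.102). It was called higher under the library-size (0.15, adjusted p = 0.0109) and upper-quartile scalings (0.17, adjusted p = 0.0045). ANKRD1 had 14.1, 14.3 and 16.6 CPM, against 20.8, 17.3 and 18.3 CPM, and missed the threshold (-0.32 ± 0.15, adjusted p = 0.0657). It passed without Cal27 ACLY replicate 3 (adjusted p = 0.0437) or HN4 labelled ACLY replicate 3 (adjusted p = 0.0357). The small fall of TEAD1 (-0.16 ± 0.06, adjusted p = 0.016) was lost under both other scalings (adjusted p = 0.113 and 0.176), and without ACLY replicate 2 (adjusted p = 0.06) or vector replicate 1 (adjusted p = 0.101), where YAP1 was called higher (adjusted p = 0.0144). AMOTL2 (0.04 ± 0.05, adjusted p = 0.507) and LATS2 (0.10 ± 0.08, adjusted p = 0.319) did not pass. The fibroblast markers moved here too, at 53.6 to 61.5 CPM in sum with ACLY and 18.8 to 22.6 CPM with vector, with 4 of 4 tested higher; PDGFRA and DCN were at 0 in both groups. The leukocyte and endothelial markers summed to 20.3 to 23.4 CPM with ACLY and 10.7 to 12.6 CPM with vector, with 4 of 4 tested higher. The part of the markers in the result was not tested.

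In Cal27, TEAD4 went the other way, with 42.7, 40.6 and 40.0 CPM with ACLY, against 19.7, 17.1 and 22.7 CPM with vector (1.04 ± 0.08, adjusted p = 5.94e-13, edgeR). CYR61 rose as well, with 275, 267 and 260.1 CPM, against 162, 158 and 169 CPM (0.70 ± 0.05, adjusted p = 7.85e-14). LATS2 had 27.8, 27.3 and 27.0 CPM, against 21.1, 22.9 and 20.9 CPM (0.33 ± 0.08, adjusted p = 0.001), and its call was lost under upper-quartile scaling (0.18, adjusted p = 0.0593). The other matrix gene moved against CYR61: CTGF fell to 6.63, 5.83 and 5.7 CPM, against 10.4, 9.43 and 8.37 CPM (-0.65 ± 0.16, adjusted p = 0.000571). TEAD1 fell to 115, 119.7 and 133 CPM, against 164, 165 and 163 CPM (-0.43 ± 0.06, adjusted p = 3.79e-08). AMOTL2 (-0.27 ± 0.05, adjusted p = 2.49e-05) and AJUBA (-0.20 ± 0.05, adjusted p = 0.00151) fell by less. YAP1 was called at 0.16 ± 0.05, adjusted p = 0.00455, which DESeq2 (0.10, adjusted p = 0.0651), library-size (adjusted p = 0.182) and upper-quartile scaling (adjusted p = 0.8) did not call. Upper-quartile scaling moved the median of all genes in this comparison by -0.14. WWTR1 (-0.03 ± 0.06, adjusted p = 0.623) and ANKRD1 (0.51 ± 0.38, adjusted p = 0.246) did not pass. WWTR1 was called lower under upper-quartile scaling (-0.18, adjusted p = 0.00512) and with a filter at a mean of 5 CPM (-0.17, adjusted p = 0.00972), and ANKRD1 passed without ACLY replicate 3 (adjusted p = 0.0428).

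The HN4-only genes stood at 0.502 of their HN4 level in these ACLY libraries. Of 9 squamous markers, 8 fell and 1 rose, where 29% of all genes fell and 34.2% rose. The fibroblast markers summed to 18.5 to 19.7 CPM with ACLY and 30.1 to 32.5 CPM with vector, with PDGFRA and DCN at 0 in both groups. The leukocyte and endothelial markers summed to at most 13.5 CPM with ACLY and at least 28.0 CPM with vector, with LYZ at 0 in both groups. The part of these in the result was not tested. YAP1, WWTR1, AMOTL2, LATS2 and AJUBA in Cal27 with ACLY lay between their vector level and that of untreated HN4. CYR61, at 267 CPM, lay above vector Cal27 (163 CPM) and above every HN4 group mean (125 to 209.6 CPM). CTGF, at 6.06 CPM, and TEAD1, at 123 CPM, lay below vector Cal27 and below every HN4 group mean (6.43 to 11 CPM and 129.8 to 151 CPM). TEAD4, at 41.1 CPM, lay above vector Cal27 and untreated HN4 (27.0 CPM) and near HN4 labelled vector (41.8 CPM).

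Between the HN4 libraries, CYR61 had 130.5, 132 and 112 CPM in those labelled ACLY, against 215, 209 and 205 CPM in those labelled vector (-0.74 ± 0.05, adjusted p = 2.63e-13, edgeR). TEAD4 had 24.9, 23.8 and 23.7 CPM, against 41.5, 42.9 and 40.9 CPM (-0.79 ± 0.08, adjusted p = 2.17e-09), and CTGF had 5.83, 7.46 and 6.0 CPM, against 12.1, 9.86 and 9.91 CPM (-0.71 ± 0.16, adjusted p = 0.000407). These differences are given by label, and ACLY itself was at -2.11 ± 0.05 between the same libraries. In means, CYR61, TEAD4 and CTGF in HN4 labelled vector (209.6, 41.8 and 10.6 CPM) lay near those in HN4 with IL-8 (197, 38.3 and 11 CPM). Those in HN4 labelled ACLY (125, 24.1 and 6.43 CPM) lay nearer untreated HN4 (143, 27.0 and 7.14 CPM). YAP1 and TEAD1 followed the same order, and other genes did not. For WWTR1, AMOTL2, LATS2 and AJUBA, HN4 labelled ACLY (78.0, 132.7, 33.5 and 150.1 CPM) lay nearer HN4 with IL-8 (79.0, 133.5, 31.0 and 148.4 CPM). Their means in untreated HN4 were 73.8, 146.1, 28.5 and 134.1 CPM. ANKRD1 (-1.27 ± 0.40, adjusted p = 0.0111) rested on 3 to 20 reads a library and was lost without HN4 labelled ACLY replicate 3 (adjusted p = 0.0732) or HN4 labelled vector replicate 3 (adjusted p = 0.0551). TEAD1 (-0.16 ± 0.06, adjusted p = 0.0281) was lost without replicate 1 (adjusted p = 0.051) or 3 (0.0957) of HN4 labelled ACLY, or replicate 1 (0.0642) or 3 (0.156) of HN4 labelled vector. YAP1 (-0.06 ± 0.05), WWTR1 (-0.07 ± 0.06), AMOTL2 (-0.01 ± 0.05), LATS2 (-0.06 ± 0.08) and AJUBA (-0.03 ± 0.05) did not pass. The fibroblast markers summed to at most 38.9 CPM in HN4 labelled ACLY and at least 54.0 CPM in HN4 labelled vector, with COL1A2, COL3A1 and DCN at 0 in both, and 5 of 9 squamous markers were called lower and 2 higher; their part in the result was not tested.

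**Figure D4:**
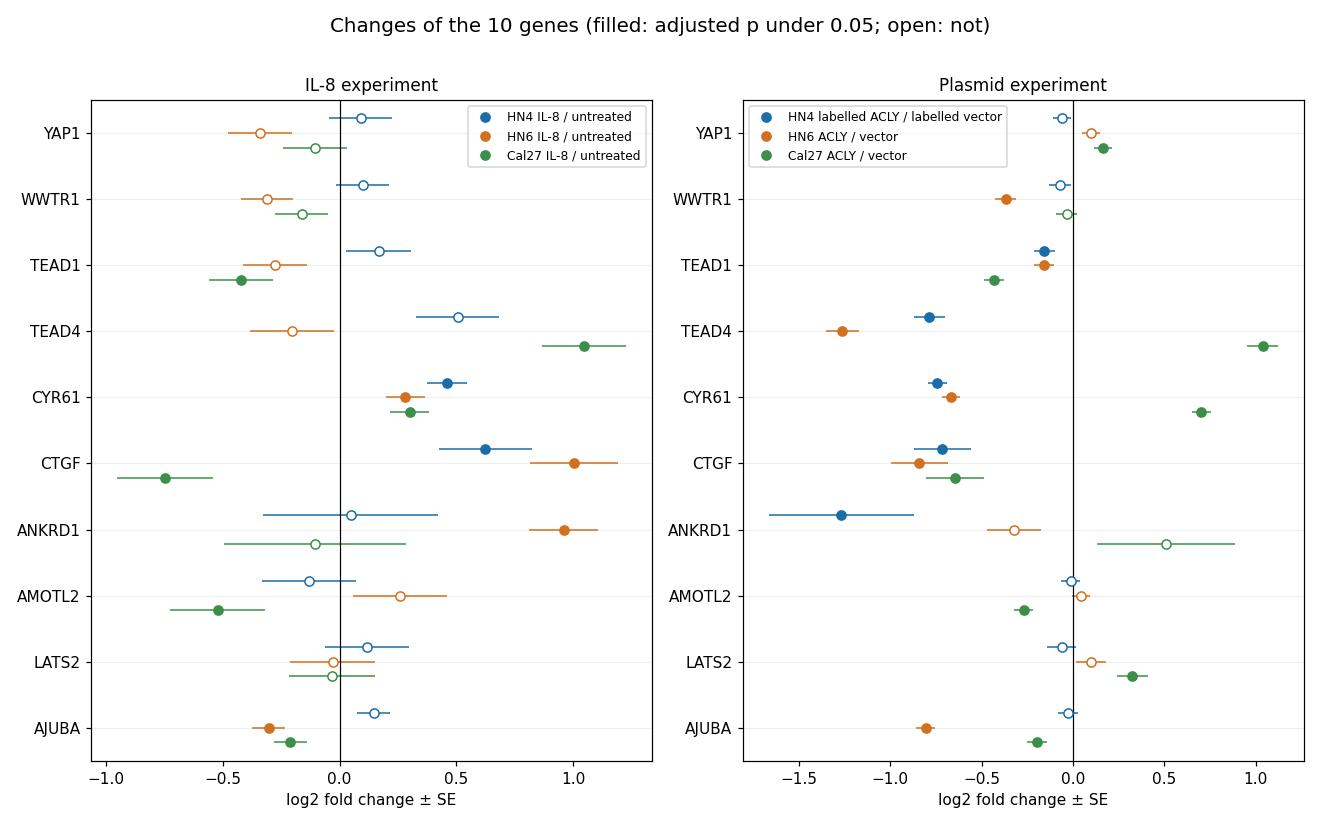
Log2 fold changes ± SE of the 10 genes with IL-8 over untreated (left) and with the ACLY plasmid over vector (right) in HN4 (blue), HN6 (orange) and Cal27 (green); filled points have an adjusted p under 0.05. HN4 is drawn by its labels in the plasmid comparison. CTGF lies left of 0 in HN6 and Cal27 with ACLY, and TEAD4 and CYR61 lie right of 0 in Cal27 with ACLY (1.04 and 0.70) and left of it in HN6 (-1.26 and -0.67).

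The effect of the plasmid differed among lines for 9 of the 10 genes (70.9% of genes called), with HN4 taken by its labels. CYR61 had the smallest edgeR adjusted p of the 10, 5.96e-19, with log2 changes of -0.74 in HN4, -0.67 in HN6 and 0.70 in Cal27, and TEAD4 followed with 7.54e-18. For ANKRD1 (0.0171) the call was lost without Cal27 ACLY replicate 2 (adjusted p = 0.0573). For CTGF the test gave an adjusted p of 0.716, with -0.71 in HN4 by its labels, -0.84 in HN6 and -0.65 in Cal27. With the HN4 labels exchanged the HN4 value would have the opposite sign to the others, so this test rests on the labels.

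Across the 6 treatment comparisons, CYR61 and CTGF were called in 6, TEAD1, TEAD4 and AJUBA in 4, AMOTL2 and ANKRD1 in 2, and YAP1, WWTR1 and LATS2 in 1. The largest change of an effector was -0.37 on the log2 scale, for WWTR1 in HN6 with ACLY. From the lowest to the highest group mean, ANKRD1 ranged over 107-fold, CTGF over 3.96-fold (3.54-fold without Cal27 IL-8 replicate 3, a setting chosen after the data were seen), CYR61 over 3.83-fold and TEAD4 over 3.44-fold. The ANKRD1 ratio is loose (SD 52.7), since its lowest mean, 0.361 CPM in HN4 labelled ACLY, rests on 9, 7 and 3 reads. YAP1 ranged over 2.61-fold: every HN4 library lay above every Cal27 library, and every Cal27 library above every HN6 library other than replicate 3 with IL-8, at 130 CPM. WWTR1 ran in the opposite order of lines by group means and ranged over 1.96-fold. AMOTL2 ranged over 1.48-fold, and its lowest group was Cal27 with IL-8, with replicate 3 at 59.9 CPM. Without that library AMOTL2 ranged over 1.33-fold, with HN4 labelled ACLY lowest.

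The rest of the pathway was read from 3 lists of named genes: 19 Hippo kinases and upstream regulators, 5 other TEAD factors and VGLL cofactors, and 17 other targets from a published YAP and TAZ signature (PTPN14 stands in the first and the last). All passed the filter in both experiments. With IL-8, the kinases and regulators gave 3 higher and 0 lower of 19 in HN4, 0 and 1 in HN6, and 6 and 3 in Cal27. That is 15.8%, 5.26% and 47.4% of the list, beside 14%, 15.4% and 39.4% of all genes. With the plasmid they gave 2 higher and 7 lower in HN4 labelled ACLY, 2 and 12 in HN6 and 7 and 9 in Cal27. That is 47.4%, 73.7% and 84.2% of the list, beside 38.1%, 51.6% and 63.2% of all genes. Their median log2 changes, from -0.20 in HN6 with IL-8 to 0.11 in HN4 with IL-8, stood beside medians of all genes between -0.01 and 0.04.

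NF2, the membrane-linked tumour suppressor Merlin that acts upstream of LATS, fell in HN6 with ACLY, to 62.0 ± 3.08 CPM against 106 ± 5.67 with vector (-0.78 ± 0.06, adjusted p = 4.9e-13, edgeR). It fell in HN4 labelled ACLY too, to 70.2 ± 4.71 CPM against 99.8 ± 4.32 in HN4 labelled vector (-0.50 ± 0.06, adjusted p = 3.68e-08). In Cal27 it rose, with 91.3 ± 3.05 CPM with ACLY against 50.03 ± 1.17 with vector (0.85 ± 0.06, adjusted p = 3.83e-14), and with 72.0, 74.8 and 142 CPM with IL-8 against 53.6, 52.3 and 47.5 CPM untreated (0.90 ± 0.18, adjusted p = 0.000747), where replicate 3 again stood apart. PTPN14, a phosphatase that binds YAP, fell in Cal27 with ACLY, to 86.0 ± 3.59 CPM against 184 ± 4.86 (-1.11 ± 0.06, adjusted p = 4.5e-18). Untreated Cal27 over HN4 was at 0.71 ± 0.14 for PTPN14. The treated Cal27 libraries hold reads of HN4-only genes, whose part in these Cal27 results was not tested. In HN4 with IL-8, the kinase STK3 (0.36 ± 0.08, adjusted p = 0.00678) and the adaptor WWC1 (0.32 ± 0.07, adjusted p = 0.00399) rose.

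AMOT, the angiomotin relative of AMOTL2, had no read in any untreated or vector Cal27 library. It had 5.98 ± 0.411 CPM in Cal27 with IL-8 and 10.4 ± 0.664 CPM in Cal27 with ACLY, at least 33.7-fold and 59.0-fold higher than the limit of 3 counts per library. Untreated HN4 had 20.2 CPM, so the IL-8 and ACLY groups stood at 0.297 and 0.517 of it, beside 0.294 and 0.502 for the HN4-only genes; their part in the result was not tested. VGLL1, a TEAD cofactor, had 61 and 105 reads over the 3 Cal27 libraries with IL-8 and with ACLY, against 0 in untreated and 2 in vector Cal27. FOXF2, a forkhead factor, had no read in any HN6 library and 6.65 ± 0.328 CPM in untreated HN4.

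Among TEAD factors and cofactors, VGLL3 rose in HN6 with IL-8, to 32.4 ± 1.41 CPM against 19.0 ± 1.3 untreated (0.79 ± 0.21, adjusted p = 0.0151, edgeR), and with ACLY, to 44.8 ± 1.92 against 19.1 ± 2.88 CPM with vector (1.24 ± 0.13, adjusted p = 5e-09). It fell in Cal27 with ACLY (-1.09 ± 0.18, adjusted p = 3.35e-06). TEAD3 rose in HN6 with ACLY (0.41 ± 0.07, adjusted p = 1e-05) and in Cal27 with ACLY (0.73 ± 0.08, adjusted p = 3.84e-10), and TEAD2 fell in HN4 with IL-8 (-0.57 ± 0.10, adjusted p = 0.000935). Untreated Cal27 over HN4 was at -0.95 ± 0.09 for TEAD3 and 0.69 ± 0.24 for VGLL3. The part of the HN4-only genes in the Cal27 changes was not tested.

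The 17 other targets gave 4 higher and 1 lower in HN4 with IL-8, 2 and 1 in HN6 and 3 and 4 in Cal27, with medians of -0.03, -0.05 and -0.15. These are 29.4%, 17.6% and 41.2% of the list, beside 14%, 15.4% and 39.4% of all genes. With the plasmid they gave 5 higher and 4 lower in HN4 labelled ACLY, 3 and 7 in HN6 and 6 and 7 in Cal27, with medians of 0.08, -0.00 and -0.18. These are 52.9%, 58.8% and 76.5% of the list, beside 38.1%, 51.6% and 63.2% of all genes. IGFBP3, which binds insulin-like growth factors, moved against CYR61 in all 3 plasmid comparisons. It had 72.3 ± 2.78 CPM in HN6 with ACLY and 16.7 ± 1.71 with vector (2.12 ± 0.06, adjusted p = 5.21e-24, edgeR), was at 1.67 ± 0.06, adjusted p = 9.24e-21 in HN4 labelled ACLY, and fell in Cal27 with ACLY, to 878 ± 19.9 against 2673 ± 61.3 CPM (-1.62 ± 0.05, adjusted p = 4.48e-24). With IL-8 it fell in HN4 (-1.18 ± 0.15, edgeR adjusted p = 4.59e-05) and in Cal27 (-0.96 ± 0.14, adjusted p = 3.54e-05). In HN6 with IL-8 it rose (1.13 ± 0.15, adjusted p = 7.17e-05), as did CYR61. Untreated Cal27 had 44.6-fold the IGFBP3 of untreated HN4. The Cal27-only genes stood at 0.398 in Cal27 with ACLY, and their part in the Cal27 falls was not tested. AXL, a receptor kinase, fell in HN6 with ACLY, to 308 ± 5.89 against 544 ± 25.3 CPM (-0.81 ± 0.05, adjusted p = 1.98e-15), and FJX1 fell there too, to 23.1 ± 0.631 against 76.1 ± 5.2 CPM (-1.72 ± 0.11, adjusted p = 1.25e-10). NT5E, the ecto-enzyme CD73, rose in Cal27 with ACLY, to 396 ± 7.42 against 155 ± 6.47 CPM (1.34 ± 0.05, adjusted p = 6.12e-22), where untreated HN4 stood at 659 CPM. Between untreated lines, 11 of these 17 targets were higher and 3 lower in HN6 than in HN4, where 67.2% of all genes were called, 32.4% higher and 34.7% lower. The median was 0.83, and the list was led by AXL (2.34 ± 0.06, adjusted p = 2.77e-15), TGFB2 (2.16 ± 0.09, adjusted p = 6.73e-13) and CCDC80 (1.92 ± 0.19, adjusted p = 6.11e-08).

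**Figure D5:**
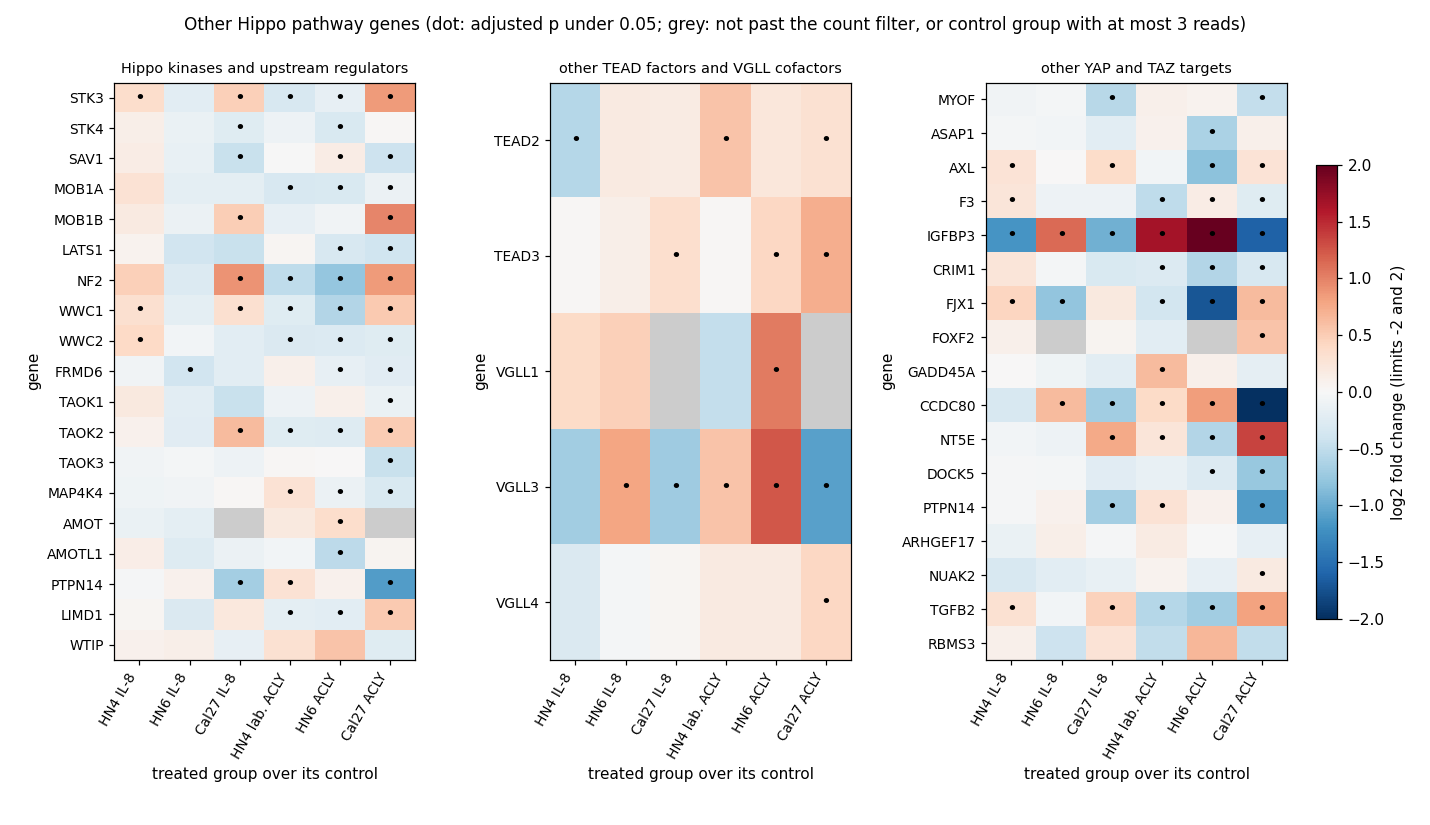
Log2 fold change of the genes of the 3 other lists in the 6 treatment comparisons (colour, limits at -2 and 2); dots mark an adjusted p under 0.05 and grey marks a gene not past the filter or a control group with at most 3 reads. IGFBP3 and VGLL3 are higher in HN6 with ACLY (2.12 and 1.24) and lower in Cal27 with ACLY (-1.62 and -1.09).

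The genes whose group means lay closest to those of YAP1, CYR61 and CTGF over the 12 groups were found among 11835 protein-coding genes by Pearson's r of log2 CPM. For YAP1 they were SLC35E1 (r = 0.989), IFIH1 (r = 0.98) and UVRAG (r = 0.979). For CYR61 they were SF1 (r = 0.981), TFRC (r = 0.977) and AKT2 (r = 0.972). For CTGF the closest were less close, with KIAA1671 at 0.854, IARS at 0.825 and ANXA7 at 0.812. The 12 points share 3 lines and their control groups, so these values are a description.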

How the data were processed

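The deposited table holds whole-number counts per gene, not normalized, in 36 libraries (16570601 to 20232735 counts each). Per the labels' protocols, RNA was selected with poly-T beads and primed with random hexamers. The submitters' processing notes list HISAT2 2.0.5, featureCounts 1.5.0-p3, CASAVA and DESeq2, and the build hg38. How strand and multi-mapping reads were handled is not given in the sources used here. All 58735 genes have the start and end of GENCODE 29. Antisense genes overlap 10% of YAP1, 9.4% of WWTR1 and 8.3% of CTGF exon bases (at most 1.74 CPM), and the pseudogene RPL39P5 overlaps 3.1% of AMOTL2, so those reads cannot be told apart.

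Groups came from the labels. Each experiment (18 libraries, 6 groups, 12 residual degrees of freedom) was fitted with edgeR 4.0.16 in R 4.3.3: filterByExpr (minimum count 10, minimum total 15), TMM factors, the robust quasi-likelihood test, Benjamini-Hochberg adjustment over all genes, threshold 0.05. Whether lines responded differently was tested jointly on both interaction terms. SE was the log2 change divided by the root of F. CPM used TMM factors over 36 libraries and TPM the table's gene lengths. Limits allow 3 counts and cover counting error only. Figures used matplotlib 3.10.9. The fit was tested on simulated data. All 36 pairs of replicates differed beyond what sampling noise allows. Every one of the 10 genes was named. From each other list, genes were named out of up to 3 with the largest rise and 3 with the largest fall in a comparison. These had to be called with a mean log2 CPM of at least 1, and only some of them are given in the text. The 10 genes, the lists and the tests were chosen with earlier results of these data known. Alternatives were DESeq2 1.42.0, other filters and scalings, other sets of libraries, a replicate block and leaving out each library.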

Additional observations from a re-analysis of the deposited data

Results flagged for a closer look

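These results are listed because the test of the difference among lines passed its threshold (edgeR adjusted p, both interaction terms together). With IL-8 this held for TEAD1 (0.0485), TEAD4 (0.00281), CTGF (0.000267), ANKRD1 (0.0461) and AJUBA (0.00357), and for 20 of 40 other Hippo pathway genes. Across all genes 40.2% passed the same test. The TEAD1 call was lost with a filter at a mean of 5 CPM, both other scalings and the replicate block (0.0552 to 0.11), and that of ANKRD1 with the replicate block (0.0721). With the plasmid it held for YAP1 (0.0146), WWTR1 (0.000684), TEAD1 (0.00279), TEAD4 (7.54e-18), CYR61 (5.96e-19), ANKRD1 (0.0171), AMOTL2 (0.000555), LATS2 (0.0125) and AJUBA (4.82e-11), and for 35 of 40 other Hippo pathway genes. Across all genes 70.9% passed. The YAP1 call was lost in DESeq2 (0.0553), with a filter at a mean of 5 CPM (0.06), with library-size (0.077) and upper-quartile scaling (0.0595), and with all 36 libraries in 1 fit (0.339). That of LATS2 was lost with the same filter, both other scalings and the 36-library fit (0.103 to 0.286), and those of TEAD1 (0.229) and AMOTL2 (0.457) in the 36-library fit. HN4 enters the plasmid test by its labels, which ACLY itself goes against, and the treated Cal27 libraries hold reads of HN4-only genes.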

How the results depend on the processing

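Of 2598 recomputed log2 values for the 10 genes, 2391 kept their side of the threshold (30 of them, called in neither fit, with the sign changed), 157 lost the call, 49 gained it and 1 reversed: LATS2 in Cal27 with IL-8, at 0.25 without replicate 3 and from -0.31 to 0.25 over all fits that left out 1 library. Counts of the 10 genes called moved as follows. With only the 6 libraries compared, they were 1 in Cal27, 6 in HN4 and 9 in HN6 for IL-8; the cause was not tested. In HN4 with IL-8 the count was 1 with a filter at a mean of 5 CPM, with library-size scaling, with upper-quartile scaling and with the replicate block. Library-size scaling gave 3 for untreated Cal27 over HN4 and 5 for untreated Cal27 over HN6. The difference among lines gave 3 with the replicate block for IL-8, and 5 with all 36 libraries in 1 fit for the plasmid. Leaving out 1 library gave 1 to 6 in HN4 with IL-8, 3 to 9 in HN6 with IL-8, 2 to 9 for Cal27 over HN4, 3 to 5 in HN4 labelled ACLY, 3 to 9 for the IL-8 and 8 to 9 for the plasmid difference among lines. AJUBA's ratio of highest to lowest group mean was 2.63 on library-total CPM and 2.81 with TMM factors.

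Over all genes, calls in HN4 with IL-8 numbered 2572, or 1401 (without HN4 IL-8 replicate 2) to 5738 (without Cal27 IL-8 replicate 3) when 1 library was left out, 1613 with the replicate block and 6551 with 6 libraries. Those in HN6 numbered 2837, or 1742 (without HN6 IL-8 replicate 1) to 6194 (without Cal27 IL-8 replicate 3), 1964 and 6025 under the same changes. Cal27 with IL-8 had 7247, or 2588 with 6 libraries. Untreated Cal27 over HN4 had 11700 and over HN6 12583, or 7758 and 8196 with the 5 CPM filter. The share of calls that were higher was 49.3% in HN4 with IL-8 (33.3% with library-size and 32.3% with upper-quartile scaling) and 49.3% in HN6 with IL-8 (64.4% and 63.8%). Upper-quartile scaling gave 46.8% against 57.6% in Cal27 with IL-8, 61.6% against 49.7% in HN4 labelled ACLY and 42.1% against 54.1% in Cal27 with ACLY. For Cal27 over HN6 both scalings moved the median of all genes by 0.11 to 0.12. Same-numbered replicates showed no general pairing: 2 of 18 pairs had a correlation of deviations over 0.1, and 5 of 18 libraries correlated best with their own number. For HN6 with ACLY and vector each number correlated best with itself, at r of 0.056, 0.067 and 0.028. With 3 libraries per group, these correlations cannot decide whether samples were paired.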
